A study of Sus scrofa with 40 samples.

Results

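CCRL2 is an atypical receptor of the chemokine receptor family that binds the adipokine chemerin. In the loin muscle of 40 pigs it was read by 1 probe, CB473607.1_1284, of the 15198 gene probes of the array, and it is followed here in every pig by breed and housing system. The scanner output gives this probe no gene name. The symbol comes from the study's list of probes higher in Large White (LW) pigs, which was drawn up on these same arrays, so the direction of the breed difference is not independent evidence. The pigs were castrated males, 20 of the local Basque (B) breed and 20 LW, and 10 of each breed were kept in a conventional (C) system on slatted floor and 10 in an alternative (A) system with bedding and an outdoor run. All received one commercial diet at the same daily allowance and were slaughtered at about 145 kg, the live weight given for every sample. B pigs grow more slowly and were older at this weight. By the paper's account, the shared allowance met a stronger appetite and growth capacity in LW pigs. What is called a breed difference here cannot be separated from age and feeding. By the paper's account each litter gave 2 pigs, which were assigned to C or A housing. Neither litter nor slaughter session is in the sample labels, so the housing systems could not be compared within litters. *Longissimus* muscle (LM) RNA of each pig was labelled with Cy3 and hybridized beside a Cy5-labelled reference, to which all 40 pigs had contributed RNA in equal amounts (the pool).

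Chemerin, the product of RARRES2, is secreted as an inactive precursor by adipose tissue and liver, and proteases remove its C-terminal end to make it active. Active chemerin draws macrophages, dendritic cells and natural killer cells through its signalling receptor CMKLR1 and also acts on adipocytes. CCRL2 binds chemerin without known signalling of its own and is thought to hold it at the cell surface for neighbouring cells that carry CMKLR1, and it is best known from endothelial cells, neutrophils, macrophages and mast cells. Whole muscle was measured, so fewer cells of a type and less RNA per cell cannot be told apart.

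The probe has 60 bases, of which 35.0% are G or C against a median of 45.0% over all gene probes. It is the only probe of its contig, and 0 of the other 15197 gene probes share a stretch of 15 or more bases with it. Its bases 31 to 60 are shown because they hold the letters AATAAA (in capitals), which are those of a common polyadenylation signal.
CB473607.1_1284: caaaggtgagataAATAAAcatcgattttt
These letters begin at base 44 and occur once in the probe, its reverse complement TTTATT does not occur, and 12.6% of the gene probes hold the motif on either strand. A match of letters is a description and says nothing of where the transcript ends. Genes that neighbour CCRL2 on its chromosome were not analysed here.

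Of 16 skeletal muscle markers listed for this report, the 3 that carry a symbol were looked at. The probes of ACTA1 (skeletal actin), MYH1 (a fast myosin heavy chain) and ATP2A1 (the calcium pump of fast fibres) were well above background on all 40 arrays. So were most gene probes, with a median of 11996 of 15198 on arrays of B pigs and 11907 on those of LW pigs. These signals therefore do not establish the muscle identity of the samples. The ACTA1 log2 ratio of LW_C replicate 8 was -3.20, against -0.80 in the next lowest LW_C pig. Arrays did not all correlate alike with others of their breed, and the cause was not tested. On LW_A replicate 18 the log2 ratios had a median correlation of -0.046 with those of the other LW pigs and an SD over probes of 0.198. On LW_C replicate 8 and LW_A replicate 13 the median correlation was 0.476 and 0.501, while the other LW arrays lay between 0.618 and 0.738 and the B arrays, each against B pigs, between 0.519 and 0.723. For B_A replicate 15 and LW_A replicate 18 the deposited series matrix also departed from the scanner output, with correlations of 0.684 and 0.779 against a median of 0.994 over the arrays. The CCRL2 log2 ratio of these 2 pigs was 0.0046 and 0.047 after the processing used here, and -0.30 and 0.28 on the scanner software's processed signals.

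The CCRL2 spot was dim. In the pig channel its mean signal in B pigs was 77.8 at lowest, 113 at the median and 168 at highest, above a local background of 40 to 49. In LW pigs the same signal was 93.2, 177 and 388, above a background of 41.5 to 47.5. The mean signal of the pool channel, before background correction, had a median of 268 (210 to 331) on the arrays of B pigs and of 280 (143 to 364) on those of LW pigs. The lowest pool signal was that of LW_A replicate 15. The spot was well above background in Cy3 on 19 of 20 arrays of B pigs, the exception being B_C replicate 10, and on 20 of 20 arrays of LW pigs. It was well above background in Cy5 on all 40 arrays, and 0 of its spots were marked as outliers or as saturated.

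**Figure D1:**
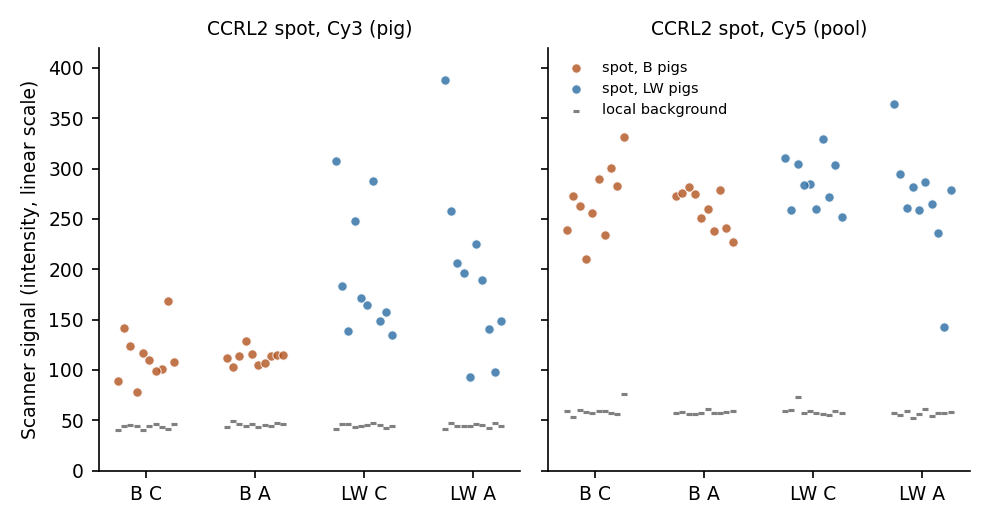
Mean scanner signal of the CCRL2 spot on each array (intensity on a linear scale, 1 point per array) in the Cy3 channel of the pig (left) and the Cy5 channel of the pool (right), by breed (B, LW) and housing (C, A), with the local background of each spot as a grey dash. In Cy3 the B pigs lay between 77.8 and 168 and the LW pigs between 93.2 and 388, while the pool signals of the 2 breeds' arrays overlapped.

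CCRL2 was lower in B than in LW pigs in both housing systems. Values are log2 ratios of pig to pool after background correction and subtraction of the array median, so that 0 is the median probe of the array. Every pig was in Cy3 and the pool in Cy5, with no dyes exchanged, so 0 need not be the pool's level for a single probe, and values are read between pigs. In B_C pigs the log2 ratio was -0.69 at lowest (replicate 10), -0.35 at the median and 0.16 at highest (replicate 5), and its mean was -0.33 ± 0.24 (SD, n = 10). In B_A pigs it was -0.55 at lowest, -0.33 at the median and 0.0046 at highest, with a mean of -0.29 ± 0.19 (SD, n = 10). The B groups thus covered one range, with 1 pig clearly above 0.

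In LW_C pigs the log2 ratio was -0.098 at lowest (replicate 8), 0.30 at the median and 0.81 at highest (replicate 1), with a mean of 0.34 ± 0.31 (SD, n = 10). In LW_A pigs it was -0.61 at lowest (replicate 13), 0.42 at the median and 1.02 at highest (replicate 11), with a mean of 0.34 ± 0.47 (SD, n = 10). The breeds overlapped. All 20 B pigs lay below the LW median and 13 of 20 LW pigs lay above every B pig, but 7 LW pigs fell within the range of the B pigs. LW_A replicate 13 was the only LW pig below the B median. By group medians the order from low to high was B_C, B_A, LW_C and LW_A, and the neighbours within a breed did not differ beyond their spread.

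**Figure D2:**
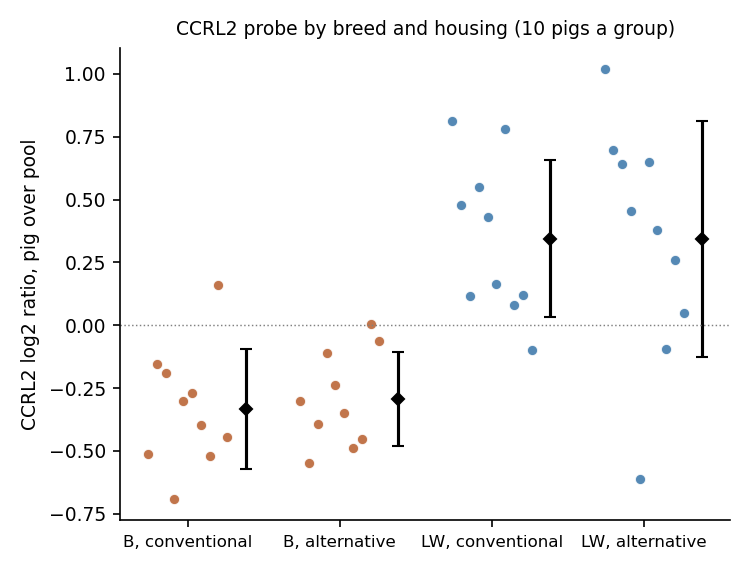
CCRL2 log2 ratio of pig to pool for each of 40 pigs (points) by breed and housing, with the mean and SD of each group of 10 (black diamond and bar). The 20 B pigs sit between -0.69 and 0.16 and the 20 LW pigs between -0.61 and 1.02, so that the breeds overlap.

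The breed difference, B minus LW averaged over housing, was -0.66 (SE 0.099, 95% confidence interval -0.86 to -0.46, adjusted P = 9.58e-06 by limma with slide in the model, n = 20 pigs a breed), or 1.58-fold lower in B. P values were adjusted by the method of Benjamini and Hochberg over the 12222 probes tested, and a probe with an adjusted P value under 0.05 is named as called. In this comparison 2593 probes (21.2%) were called, and 1175 (9.61%) were called with the lower level in B. By P value the CCRL2 probe stood at rank 159 of all tested probes, and it was at rank 73 by size among probes lower in B. Within C housing the difference was -0.65 (SE 0.14, adjusted P = 0.00323), where 8.29% of the tested probes were called. Within A housing it was -0.67 (SE 0.14, adjusted P = 0.00221), where 7.67% were called. In C housing all 10 B pigs lay below the LW median and 6 LW pigs lay above every B pig. In A housing these counts were 10 and 8.

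The size of the difference depended on the processing. The correction used above adds an offset of 50 to each signal, and with an offset of 10 the breed difference was -0.92 (SE 0.14). With no background correction it was -0.68 (SE 0.098). With Agilent's processed signals, which are background-subtracted and dye-normalized by the scanner software, the log2 ratio averaged -0.60 ± 0.47 over the B pigs and 0.60 ± 0.61 over the LW pigs (SD, n = 20 each). The breed difference on that scale was -1.19 (SE 0.18, adjusted P = 7.29e-06 in limma), or 2.28-fold, and on the deposited series matrix it was -1.13 (SE 0.17, adjusted P = 8.70e-06), or 2.19-fold. These values differ from the first in dye normalization and scaling as well as in background, and the share of each was not tested. On the processed scale, too, the LW median exceeded all 20 B pigs, and 11 LW pigs lay above every B pig. The B_A median (-0.53) then lay below the B_C median (-0.51), the reverse of the order given above. Taken alone after the correction used above, with the median of each array subtracted, the pig channel differed by -0.70 between breeds (SE 0.13, adjusted P = 4.11e-04 in limma). Treated the same way, the pool channel differed by -0.037 (SE 0.061, unadjusted P = 0.546). Agilent's processed Cy5 signal of the pool, with no array median subtracted, averaged 303 (251 to 343) on arrays of B pigs and 338 (266 to 429) on those of LW pigs, a difference that was not tested. These fits of single channels were chosen after seeing the data.

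The 40 arrays lay on 7 slides, each with pigs of both breeds. B minus LW was -1.11 on slide 1, -0.40 on slide 2, -0.85 on slide 3, -0.60 on slide 4, -0.085 on slide 5, -0.61 on slide 6 and -0.90 on slide 7. Slide 2 held only 1 pig of each breed. On 6 slides the highest B pig stayed under the lowest LW pig of the slide, and on slide 5 the breeds overlapped. Slide 5 carried both the lowest LW pig (LW_A replicate 13) and the highest B pig (B_C replicate 5), and without LW_A replicate 13 its difference was -0.27. Without slide 5 the breed difference over the remaining arrays was -0.80 (SE 0.087), and without slide 1, which showed the largest difference, it was -0.57 (SE 0.11). The slides were scanned on 3 days, with differences of -1.11 on day 1 (slide 1 only), -0.50 on day 2 and -0.69 on day 3. Without B_A replicate 15 and LW_A replicate 18, the arrays that stood apart from the series matrix, the breed difference was -0.68 (SE 0.10), and without LW_A replicate 13 it was -0.70 (SE 0.087).

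**Figure D3:**
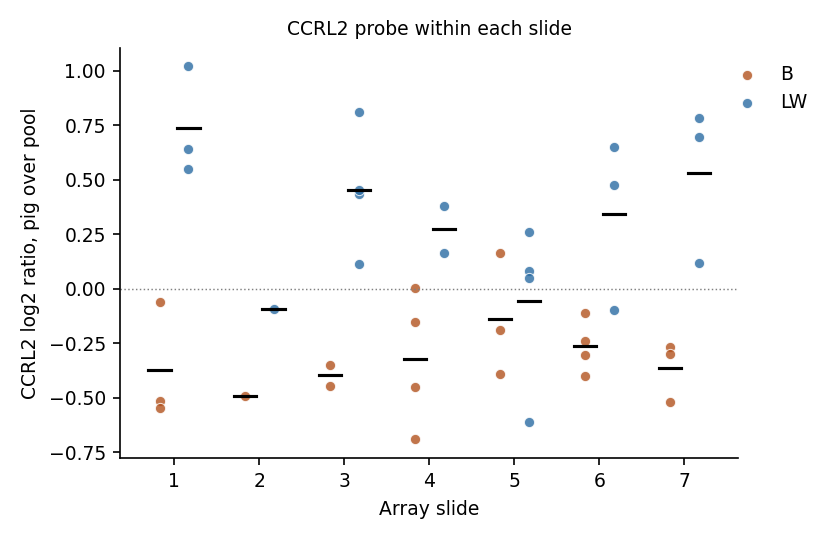
CCRL2 log2 ratio of pig to pool on each of the 7 array slides, with B pigs and LW pigs as points and the mean of each breed on the slide as a black line. The means of the B pigs lie below those of the LW pigs on every slide, with differences from -1.11 on slide 1 to -0.085 on slide 5.

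Housing left no detectable difference in CCRL2 in a model that could not take litter into account. A minus C, averaged over the breeds, was 0.061 (SE 0.10, 95% confidence interval -0.15 to 0.27, unadjusted P = 0.555, adjusted P = 1 in limma). The interval corresponds to a ratio of A to C between 0.903 and 1.21 on this scale. Under 16 other settings A minus C ran from 6.84e-04 to 0.117, the latter on processed signals (SE 0.187). Within B pigs A minus C was 0.048 (SE 0.14, unadjusted P = 0.734), and within LW pigs it was 0.074 (SE 0.15, unadjusted P = 0.614). Over the array, 0 of 12222 probes (0%) were called for housing in limma. Those with an unadjusted P value under 0.05 numbered 337, a smaller share than the 0.05 that chance alone gives on average. The interaction of breed and housing for CCRL2 was -0.026 (SE 0.20, 95% confidence interval -0.43 to 0.38, unadjusted P = 0.898). Here too 0 probes (0%) were called, and the 324 with an unadjusted P value under 0.05 were again a smaller share than 0.05. Why both shares fell short was not tested.

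LW pigs differed among themselves more than B pigs on the log2 ratio, but the difference did not pass the test on residuals or on processed signals. The mean absolute deviation from the group median was 0.17 in B and 0.31 in LW pigs, a difference of 0.14 (two-sided permutation test, p = 0.0164, n = 20 each). The difference was 0.10 without LW_A replicate 13 (p = 0.0378, permutation test), a choice made after seeing the data. On the residuals of the model, from which slide is removed, it was 0.032 (p = 0.615), and on processed signals it was 0.12 (p = 0.302). The SD in LW pigs was 1.84 times that in B pigs, a ratio reached by 5.63% of the tested probes, and 1.28 times on processed signals.

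CCRL2 and other members of the chemerin and chemokine systems were looked up in 16 lists of 250 genes, which also hold markers of cell types. Symbols were used only for the 683 probes of the study's list of probes higher in LW pigs, of which 74.5% were called here. The study's list of probes higher in B pigs was not used for names. In it, probes that share a symbol had a median residual r of 0.111 with each other (98 pairs), against 0.799 (97 pairs) in the list used, a check made after seeing the data. The lists can therefore be counted in 1 direction only, and a list's count is no independent evidence of its direction. Beside CCRL2 they matched 20 probes, of which 10 were called lower in B, 10 were not called and, as the choice of symbols fixes, 0 were called higher in B. Under 17 other settings between 9 and 14 of these 20 were called. The median difference over all 12222 tested probes was 4.00e-04. Of the chemerin system itself CCRL2 alone had a symbol, and RARRES2, CMKLR1 and GPR1 were not analysed here. Of 17 proteases known to process or degrade chemerin, or related to those that do, 1 had a symbol. This was CTSK, the cysteine protease cathepsin K, with a log2 ratio from -0.30 to 0.38 (median 0.11) in B and from -0.042 to 0.35 (median 0.22) in LW pigs. At -0.090 (SE 0.041, adjusted P = 0.112 in limma) the breed difference of CTSK was not called, but it was called under 7 of the 15 other settings that tested it.

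Of 22 chemokine receptors 2 had a symbol. CXCR7, now ACKR3, is an atypical receptor like CCRL2 and removes the chemokine CXCL12 from the tissue. Its log2 ratio ran from -0.87 to 0.35 (median -0.12) in B and from -0.48 to 0.66 (median 0.18) in LW pigs, and it fell by 0.41 in B relative to LW (SE 0.094, adjusted P = 0.00180 in limma). CXCR4 is the signalling receptor for the same chemokine on leucocytes and muscle precursor cells. It ran from -0.75 to 1.03 (median -0.030) in B and from -0.67 to 1.02 (median 0.30) in LW pigs, and B minus LW was -0.31 (SE 0.12, adjusted P = 0.0737 in limma), which was not called here but was under 4 of 17 other settings. For both receptors the breeds overlapped over most of their range. Over the 40 pigs CCRL2 correlated with CXCR7 at r = 0.558 and with CXCR4 at r = 0.587. On the residuals, after removal of breed, housing and slide, r was 0.325 for CXCR7 and 0.635 for CXCR4.

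**Figure D4:**
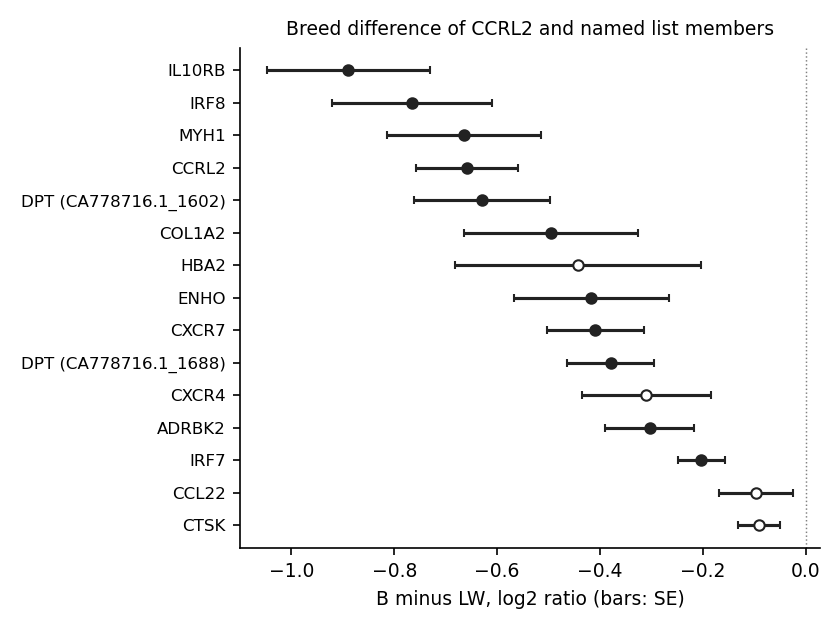
Breed difference (B minus LW, log2 ratio, point with SE) of CCRL2 and of the named members of the lists, sorted by size. Filled points had an adjusted P value under 0.05 in limma and open points did not; all lie below 0, as does CCRL2 at -0.66, and all symbols come from probes the study listed as higher in LW pigs.

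Among 36 chemokines 1 had a symbol, CCL22, a ligand of the receptor CCR4 made by macrophages and dendritic cells. It differed by -0.096 (SE 0.072, adjusted P = 0.384 in limma) and was not called. Among 21 genes of receptor desensitisation and G proteins, 1 had a symbol, the receptor kinase ADRBK2 (GRK3), which fell by 0.30 in B (SE 0.086, adjusted P = 0.0105). Of 23 adipokines and their receptors 2 had a symbol, and 1 of them was called, against 74.5% of all probes with a symbol. This was ENHO, which encodes the peptide hormone adropin and stood at -0.42, B minus LW (SE 0.15, adjusted P = 0.0461), and was called under 10 of 17 other settings.

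Of 26 inflammatory inducers and regulators 3 had a symbol, and all 3 were called lower in B, where 74.5% of all probes with a symbol were called. IL10RB, a subunit shared by receptors of the interleukin 10 family, ran from -1.39 to 0.59 (median -0.78) in B and from -0.83 to 0.92 (median 0.33) in LW pigs, and B minus LW was -0.89 (SE 0.16, adjusted P = 1.05e-04 in limma). IRF8, a transcription factor of macrophages and dendritic cells, differed by -0.76 (SE 0.16, adjusted P = 4.95e-04). IRF7, which drives interferon genes, differed by -0.20 (SE 0.046, adjusted P = 0.00171). For all 3 genes the likeness to CCRL2 was smaller once breed, housing and slide were removed. Over the 40 pigs r with CCRL2 was 0.517 for IL10RB, 0.563 for IRF8 and 0.569 for IRF7, and on the residuals it was 0.0067, 0.333 and 0.227.

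No probe of the macrophage and monocyte, neutrophil, mast cell, lymphocyte, endothelial or adipocyte marker lists had a symbol in the list used, so the cells in which CCRL2 is best known were not analysed here. Of 10 fibroblast markers 3 had a symbol on 5 probes, of which 3 probes were called lower in B, a share below the 74.5% of all probes with a symbol. The 3 were both probes of DPT, the matrix protein dermatopontin, at -0.63 (SE 0.13, adjusted P = 7.04e-04) and -0.38 (SE 0.084, adjusted P = 0.00128), and 1 probe of COL1A2, a chain of fibrillar collagen, at -0.50 (SE 0.17, adjusted P = 0.0327 in limma). The other probe of COL1A2, at -0.18 (SE 0.071, adjusted P = 0.0701), and that of the proteoglycan DCN, at -0.17 (SE 0.097, adjusted P = 0.219), were not called. Of 17 other settings, the first COL1A2 probe was called under 16, the other under 5 and DCN under 0. The residual r with CCRL2 was 0.581 for DCN, 0.384 and 0.352 for COL1A2, and 0.215 and 0.227 for DPT. By Spearman these were 0.470 for DCN, 0.258 and 0.289 for COL1A2, and 0.0662 and 0.101 for DPT. Without LW_A replicate 13 and B_C replicate 5, the residual r was 0.458 for DCN, 0.368 and 0.322 for COL1A2, and 0.155 and 0.173 for DPT. Within B pigs r was 0.528 for DCN, 0.282 and 0.322 for COL1A2, and -0.0973 and -0.00992 for DPT. Within LW pigs it was 0.583 for DCN, 0.428 and 0.479 for COL1A2, and 0.154 and 0.180 for DPT. The summed processed Cy3 signal of the 5 probes was 4283 at lowest, 6280 at the median and 10062 at highest in B pigs, and 4482, 11448 and 15555 in LW pigs. All 5 probes were well above background on all 40 arrays, and the sums are read between pigs only. The mean log2 ratio of these probes correlated with CCRL2 at r = 0.62 over all pigs, at 0.299 within B and at 0.392 within LW pigs, and their part in the CCRL2 difference was not tested.

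Of 16 skeletal muscle markers 3 had a symbol and 1 of these was called, again against 74.5% of all probes with a symbol. This was MYH1, at -0.66 (SE 0.15, adjusted P = 0.00157 in limma). ATP2A1, at -0.28 (SE 0.10, adjusted P = 0.0511), was called under 12 of 17 other settings, and ACTA1, at -0.29 (SE 0.16, adjusted P = 0.194), under 1. Of 5 red blood cell markers 1 had a symbol, HBA2 (a haemoglobin chain), on 2 probes that were not called, the one with the smaller P value at -0.44 (SE 0.24, adjusted P = 0.200). Its summed processed signal ran from 2050 to 32652 (median 5890) in B and from 4098 to 59867 (median 10836) in LW pigs. With CCRL2, MYH1 had a residual r of 0.0982 (Spearman -0.0206), and r was -0.0287 within B and 0.13 within LW pigs. The HBA2 probe had a residual r of -0.153, but on the log2 ratios r was 0.507 within B (n = 18) and -0.644 within LW pigs (n = 17). The difference between these was not tested.

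The probes most like CCRL2 were sought among the 683 tested probes with a symbol, as a description over 40 pigs that share a pool, slides and breeds. On the log2 ratios the highest r belonged to SAMD11 (0.791, Spearman 0.772), ARMCX6 (0.791, Spearman 0.820), MYCBPAP (0.775, Spearman 0.774), AHNAK (0.774, Spearman 0.786) and MAGEH1 (0.774, Spearman 0.788). All 5 were called lower in B. AHNAK, which encodes a very large scaffold protein beneath the plasma membrane of muscle fibres, averaged -0.58 ± 0.27 over the B pigs and 0.13 ± 0.38 over the LW pigs (SD, n = 20 each). SAMD11, a nuclear protein with a SAM domain, averaged -0.68 ± 0.32 over the B pigs and 0.40 ± 0.59 over the LW pigs (SD, n = 20 each). The lowest r were near 0, at -0.0114 for BLOC1S2, -0.00829 for EEPD1 and 0.00141 for BTG1, an antiproliferative gene. All named probes had been listed for a lower level in B, which leaves no place among them for probes higher in B.

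On the residuals, where breed, housing and slide no longer count, the highest r were those of SGK1 (0.806), ARMCX6 (0.692), both probes of GADL1 (0.675 and 0.666) and RIMBP2 (0.665). SGK1 is a kinase induced by serum and glucocorticoids, and GADL1 is a decarboxylase of muscle that makes beta-alanine. SGK1 averaged -0.70 ± 0.35 over the B pigs and -0.16 ± 0.39 over the LW pigs (SD, n = 20 each), and GADL1 on its first probe -0.64 ± 0.54 and 0.16 ± 0.63. When slide was not removed the r of SGK1 was 0.538, that of ARMCX6 0.649 and that of RIMBP2 0.679. Without LW_A replicate 13 and B_C replicate 5, the pigs farthest out in the CCRL2 residual, r was 0.699 for SGK1, 0.607 for ARMCX6 and 0.553 for RIMBP2. For the probes of GADL1 it was then 0.552 and 0.528. Within single breeds, on the uncorrected log2 ratios, r was 0.739 in B and 0.602 in LW pigs for ARMCX6, and 0.613 and 0.516 for SGK1. It was 0.193 and 0.631 for SAMD11, 0.318 and 0.770 for MYCBPAP, and 0.284 and 0.784 for RIMBP2. AHNAK gave 0.552 and 0.492, MAGEH1 0.418 and 0.670, and the probes of GADL1 between 0.580 and 0.624 in both breeds. Whether r differed between the breeds was not tested. The lowest residual r were those of EEPD1 (-0.553), ASB13 (-0.546) and TOE1 (-0.495), which encodes an RNA exonuclease. Over all tested probes, named or not, the residual r ran from -0.80 to 0.81, with 183 probes above 0.5 and 346 under -0.5.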

How the data were processed

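The authors extracted spot intensities with Agilent Feature Extraction 9.5.3.1 and deposited them before normalization, with local background, spot marks and processed signals. They also deposited log2 ratios in a series matrix, for which the submitters' notes name limma. Against log2 ratios of processed signals these had a median correlation of 0.994 and slope of 0.948, in the direction of pig over pool, and column medians from -0.015 to 0.026.

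Mean signals were background-corrected by the normexp method of limma 3.58.1 (offset 50; R 4.3.3). The log2(Cy3/Cy5) ratio was taken, the median of each array subtracted, and 2396 outlier spots were left out, while 83 saturated spots were kept. Testing required a pig signal well above background in 10 or more arrays of either breed, met by 12222 probes. One limma model held the 4 groups of breed and housing, and slide, with Benjamini-Hochberg adjustment, and a probe was called at an adjusted P value under 0.05. The program was tested on simulated data. The permutation test of spread used 100000 resamples.

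The members and lists were chosen with earlier results of these data known. Named genes are CCRL2, each matched chemerin and chemokine receptor probe, and in other lists up to 4 called members or else the one with the smallest adjusted P value. To these come the 5 highest and 3 lowest correlations with CCRL2, the muscle markers, and the fibroblast probes that were not called. Alternatives covered background, normalization, filters, slide, array weights, arrays left out and a replicate block. Precision is limited by the number of arrays and by signal over background. P values treat littermates as independent.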

Additional observations from a re-analysis of the deposited data

Results flagged for a closer look

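For CCRL2 itself, in 0 of the 4 groups did the gap from the outermost pig to its neighbour reach 0.466 of the group's range, the limit used. LW_A replicate 13, at -0.61 against -0.094 in the next lowest LW_A pig, reached 0.318. Not reaching the limit in a group of 10 does not show that a pig lay close to the others. Over the named probes, apart from that of DCN and the uncalled one of COL1A2, 122 groups of pigs were examined. In 16 of them the lowest or the highest pig was separated from its nearest neighbour by an unusually large share of the group's range. Chance alone gives about 1 in 20 groups. The same 40 pigs recur for every probe, so the groups are not independent and the 16 cannot be judged against this rate.

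Of these 16, 10 belonged to 1 pig, LW_C replicate 8, always as the lowest of its group. Its log2 ratio was -0.96 for CCL22, -1.38 for ENHO, -1.35 and -0.93 for the probes of DPT, -1.56 for COL1A2, -3.20 for ACTA1, -1.41 for SAMD11, -0.90 for MYCBPAP, and -1.33 and -1.39 for the probes of GADL1. For CCRL2 it was also the lowest LW_C pig, at -0.098, and without it the breed difference was -0.69 (SE 0.098). LW_A replicate 13, the LW pig lowest in CCRL2, stood apart for SAMD11 (-0.82) and for 1 probe of GADL1 (-1.44), which are among the genes most like CCRL2.

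Single values stood apart in B pigs. B_C replicate 4 was high for CXCR4 (1.03), B_C replicate 10 low for CCL22 (-0.55), B_A replicate 13 high for ADRBK2 (-0.059) and B_A replicate 20 high for ARMCX6 (0.41).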

How the results depend on the processing

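The CCRL2 breed difference kept its direction and its call under 19 other settings, from -1.19 to -0.64 (adjusted P from 1.76e-07 to 0.00157), under 7 with 1 slide left out (-0.80 to -0.57) and under 40 with 1 pig left out (-0.71 to -0.63). Scan day in place of slide and the fit of the Cy3 channel after subtraction of the array median were chosen after seeing the data. The differences within C and within A housing kept theirs under 17 settings each, with adjusted P values up to 0.0428 and 0.0276.

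Replicate numbers 1 to 20 occur in both breeds, but only 3 of 20 same-numbered pairs correlated above 0.1 in their deviations (median -0.018). Of 20 B pigs 2 correlated best with their own number, so the numbers were not taken as pairs. Such a pair joins a B and an LW pig, so this check does not bear on littermates, who share a breed. Pairing by litter was not examined. With the replicate block the breed difference was -0.65 (adjusted P = 0.00157), -0.63 within C and -0.67 within A, the interaction was -0.044, 2206 probes were called in place of 2593, and 10 list members, CCRL2 included, in place of 11. Over all 17 settings the list members called besides CCRL2 numbered 9 to 14 against 10, more under 13 settings and fewer under 2.

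Over 17 other settings the probes called between breeds numbered from 1759, on the most variable probes, to 3929, with array weights, against 2593. Without B_A replicate 15 and LW_A replicate 18 they numbered 3534, and on processed signals 3773. The cause of these changes was not tested. The interaction, which was not called, changed sign with processed signals (0.040), offset 10 (0.022), Cy3 intensity alone (0.020), the series matrix (0.072), slide as a random block (0.018), scan day (0.041), and without slide or in the two-step analysis (0.037 each). The housing difference within LW changed sign with Cy3 intensity alone (-0.0061) and with scan day (-0.020). The difference in spread lost its call on residuals (0.032) and on processed signals (0.12), and the cause was not tested.

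Of the 5 named probes with the highest r on log2 ratios, 1 was among the highest 5 by Spearman. Of the 5 with the highest r on residuals, 2 were among the highest 5 by Spearman, and 2 by r when slide was not removed. The CCRL2 spot was dim, and its breed difference was -0.92 at an offset of 10 against -0.66 at 50.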
